A study of Papio anubis and Macaca fascicularis and Castor canadensis with 48 samples.

Results

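Creatine is made in a pair of steps, carried into cells and then used to buffer ATP, and 6 genes of that route were looked up in a table of 16816 genes by their mouse Ensembl identifiers. Of these, 4 had a row: Gatm (ENSMUSG00000027199), Gamt (ENSMUSG00000020150), Slc6a8 (ENSMUSG00000019558) and Ckb (ENSMUSG00000001270). The muscle creatine kinase Ckm and the mitochondrial creatine kinase Ckmt1 had no row and were not analysed here. The genes were chosen by their place in the route and selected on their CPM levels by species and organ, with earlier results of these data known. Organs and species are therefore compared by size, error and overlap, with no test of a difference in the 4 genes. The share of all genes that separate the same groups is not given, so a lack of overlap only describes these genes. Only relations within or between groups of libraries, and single libraries set apart from their group, were tested.

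The study measured RNA by bulk sequencing in 48 libraries from 8 mammals, all labelled wild type, male and adult, with no treatment named. Baboon (Papio anubis) gave 6 brains, 6 kidneys and 6 livers. Long-tailed macaque (Macaca fascicularis) gave 6 cerebella, 5 kidneys and 6 livers, and beaver (Castor canadensis) gave 2 brains and 2 livers. American black bear (Ursus americanus) gave 1 kidney and 1 liver, and white-footed mouse (Peromyscus leucopus) gave 1 brain and 1 liver. The livers of chipmunk (Tamias sibiricus, 2 libraries), sugar glider (Petaurus breviceps, 2 libraries) and tube-nosed bat (Murina leucogaster, 1 library) complete the set. The first 3 species, with 39 libraries, came from a primate research center and the other 5, with 9 libraries, from an earlier collection, so each species belongs to 1 of 2 collections. The labels do not say which region of the brain was taken, and they do not state whether libraries of 1 number came from 1 animal. Depth ran from 6326129 to 26801829 counts a library. The files pair no identifier with a gene name, so the labelled organs were not checked against cell type markers.

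Gatm encodes the amidinotransferase that joins part of arginine to glycine, giving guanidinoacetate and ornithine. Gamt encodes the methyltransferase that turns guanidinoacetate into creatine with a methyl group from S-adenosylmethionine. In the textbook scheme the kidney carries much of the first step and the liver much of the second, with guanidinoacetate passing between them in the blood. Slc6a8 is the membrane transporter that brings creatine into cells, and Ckb is the cytosolic brain-type kinase that moves phosphate between ATP and creatine.

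The levels below are in CPM, a gene's count in 1000000 counts of its library. Some organs put much of that total into few genes: the 10 most counted genes held 26.9% to 37.3% of the counts in baboon livers and 12.5% to 16.97% in baboon kidneys. A second scale therefore uses TMM factors, which rescale libraries so that most genes do not differ. Those factors were 0.55 to 0.63 in baboon livers and 1.44 to 1.66 in baboon kidneys. A difference between liver and another organ moves with this choice by more than a factor of 2 in baboon, macaque and beaver. Both scales are given where it matters. Fitted log2 differences are on the TMM scale unless another scaling or tool is named. Those from liver are listed with library totals in the closing section.

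Gatm was among the most counted genes in the kidneys of the 3 species with a kidney library, and in the livers of those species and of beaver. In baboon kidneys it ranked from the 11th to the 56th most counted gene, at 1135 CPM in the lowest library, 3309.6 at the median and 5434 in the highest (mean 3305 ± 1450.5, SD, n = 6). Macaque kidneys held 1716, 2535, 1549.95, 1816 and 1584 CPM (mean 1840.2 ± 402.8, SD, n = 5). The single bear kidney held 6124 CPM, above each of the other 47 libraries. Kidneys of 3 species thus carried high Gatm, with baboons spread over a 4.79-fold range and macaques over a 1.64-fold range. In bulk tissue, fewer cells of a type and less RNA per cell cannot be told apart.

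Livers split widely in Gatm. Baboon livers ran from 732.5 through a median of 1436 to 2286 CPM (mean 1419.6 ± 550.1, SD, n = 6), and macaque livers from 284.9 through 864.1 to 1201 CPM (mean 788.2 ± 355.6, SD, n = 6). The beaver livers held 1372 and 1167 CPM and the bear liver 2554 CPM. Baboon, beaver and macaque livers overlapped, and the bear lay above them all. The remaining livers were far lower: 9.49 CPM in the tube-nosed bat, 4.43 and 2.83 CPM in the sugar gliders, 2.65 CPM in the white-footed mouse, and 2.46 and 0.808 CPM in the chipmunks. Between the highest of these 6 livers, the bat, and the lowest of the other 15, macaque no. 2, lay a 30.0-fold gap with no liver inside it.

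The low values rest on few reads. The 6 low livers held 18 to 82 deposited counts of Gatm, and since low counts were nearly always even, a pair of counts appears to stand for 1 read pair. On that reading the exact Poisson 95% interval of the bat value is 6.81 to 12.9 CPM and that of the lower chipmunk 0.369 to 1.53 CPM, counting error only. No library had any of the 4 genes at 0, and the lowest count was 12. In the chipmunk livers Gatm was above 35.7% and 42.8% of all genes, where in the bear liver it was above 99.7%. Genes at 0 numbered 3768 in the bat liver, 3716 to 3903 in chipmunk, 4632 to 4865 in sugar glider and 5078 in white-footed mouse. The livers with high Gatm had 3845 in bear, 3859 to 3924 in beaver, 3228 to 3417 in macaque and 3195 to 3427 in baboon. The bat count lay below those of bear and beaver, and the chipmunk range overlapped them. Sugar glider and white-footed mouse lay above every liver with high Gatm. Whether these counts bear on the Gatm split was not tested.

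**Figure D1:**
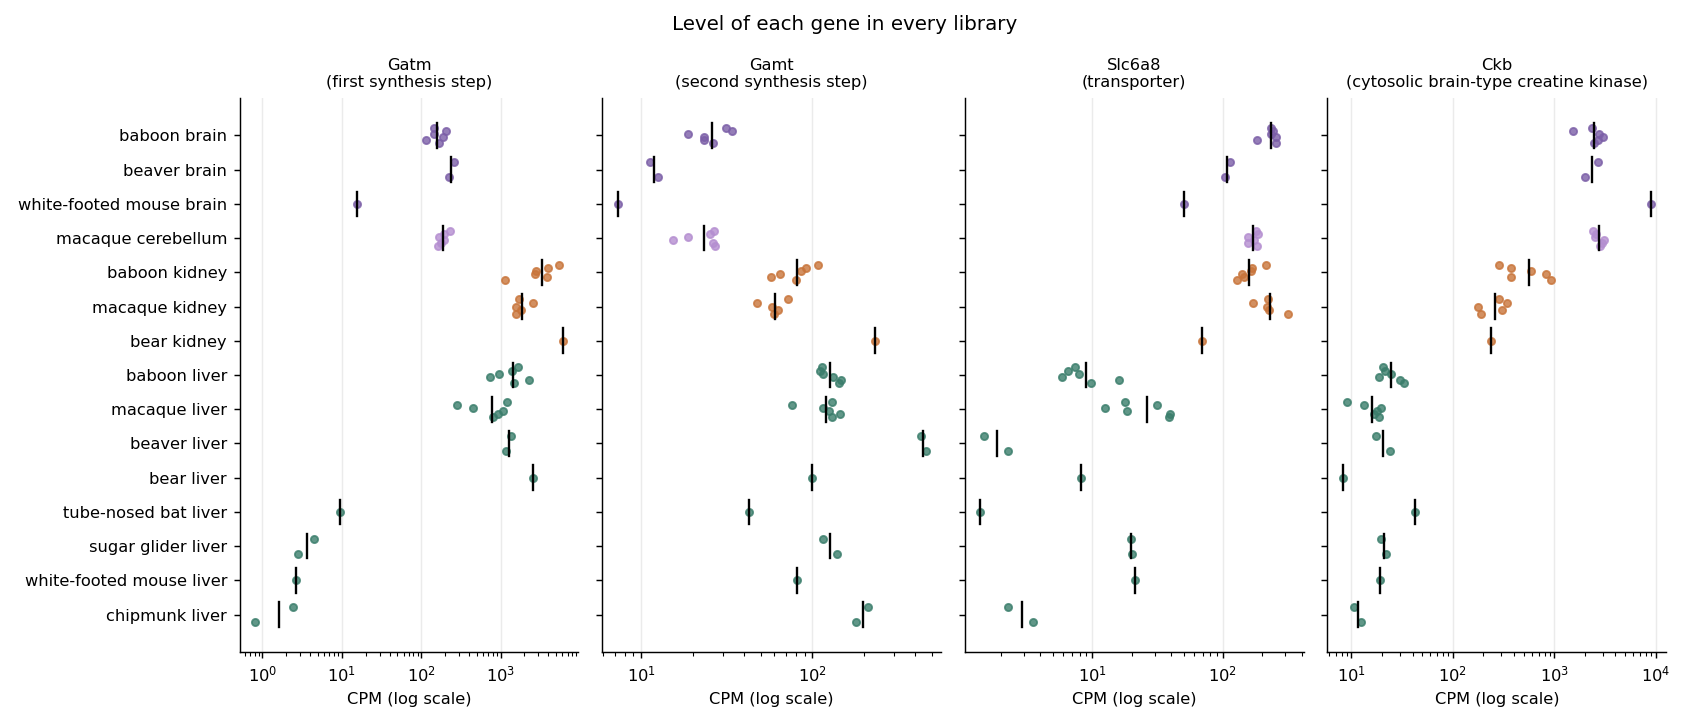
Level of each gene in CPM (log axis) in each of the 48 libraries, by species and organ; points are libraries and black bars are group means. Gatm falls into a high and a low set of livers, with no liver between 9.49 and 284.9 CPM, while Gamt in the same 21 livers stays between 42.8 and 458.6 CPM.

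Brain and cerebellum of 3 species held Gatm between the levels of the low and the high livers. Baboon brains ran from 115.4 through 156.9 to 203.9 CPM (mean 160.7 ± 32.4, SD, n = 6), macaque cerebella from 161.6 through 184.5 to 227.7 CPM (mean 186.5 ± 24.1, SD, n = 6), and the beaver brains held 256.0 and 225.5 CPM. All 3 lay below every liver and kidney of their own species on both scales. On the TMM scale the fitted log2 difference from liver was -4.58 ± 0.35 (SE) for baboon brain, -3.53 ± 0.30 for macaque cerebellum and -3.77 ± 0.19 for beaver brain. Scaled to library totals these were -3.14, -2.08 and -2.40. The white-footed mouse went the other way. Its brain held 15.5 CPM, from 98 counts, and its liver 2.65 CPM, from 34 counts, so brain was 5.84-fold higher (exact 95% interval 3.31 to 10.8, counting error only), or 3.18-fold on the TMM scale. No kidney of that species was analysed here.

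Which organ carried the first step thus had no single answer across species, and between kidney and liver it depended on the scale. By CPM, mean Gatm in kidney over liver was 2.33-fold in baboon, 2.33-fold in macaque and 2.40-fold in bear (2.36 to 2.44). On the TMM scale the same ratios were 0.922 in baboon, 1.03 in macaque and 1.74 in bear. With the 10 most counted genes left out of each library total, the ratios were 1.83 in baboon, 1.93 in macaque and 2.11 in bear. The fitted log2 differences, kidney minus liver, were -0.19 ± 0.31 (SE) in baboon and -0.02 ± 0.28 in macaque with TMM factors, and 1.22 ± 0.31 and 1.22 ± 0.27 with library totals alone. With library totals the median over all genes also moved, from 0.06 to 1.47 in baboon and from 0.02 to 1.26 in macaque. In both primates and on both scales, Gatm lay below that median by less than 1 SE. In the bear the kidney was higher on both scales, with 1 library an organ.

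Libraries of 1 number showed the same dependence. By CPM the kidney held more Gatm than the liver of its number in 5 of 6 baboons and 5 of 5 macaques, and on the TMM scale in 4 of 6 and 2 of 5. Baboon no. 6 went against the others by CPM, with 1135 in kidney and 1479 in liver. Macaque no. 2 had the widest ratio, 8.90 by CPM and 4.11 on the TMM scale, from the highest kidney and the lowest liver of its species. In beaver, where no kidney was analysed here, liver was the higher of both organs measured. In the chipmunks, sugar gliders and bat, liver was the only organ, and it held little Gatm.

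**Figure D2:**
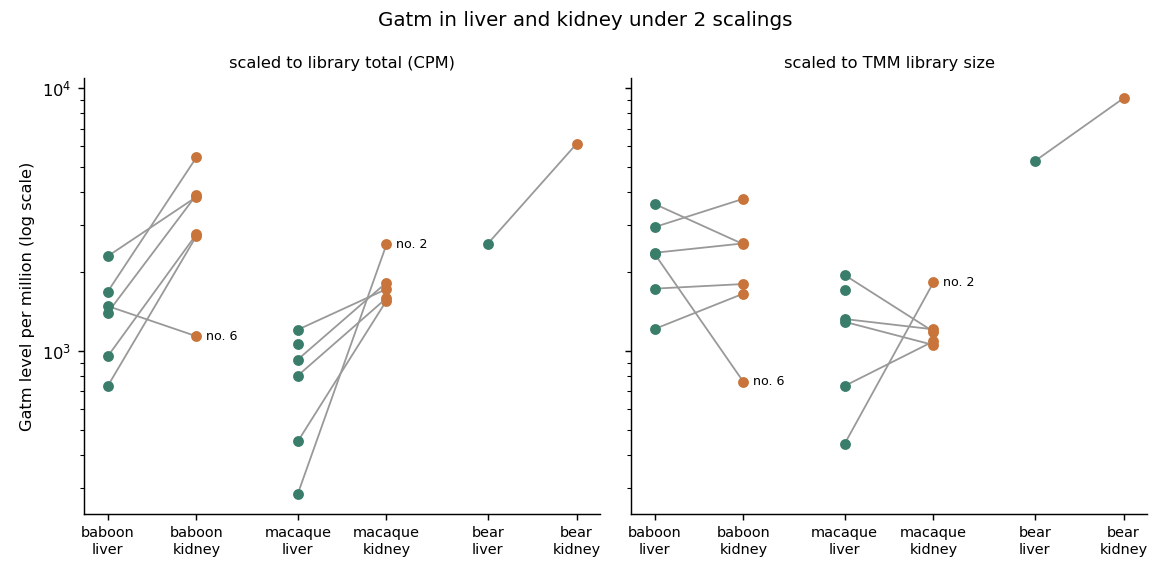
Gatm in liver (green) and kidney (orange) of baboon, macaque and bear, in CPM on the left and on the TMM scale on the right (log axes); each point is a library and lines join libraries of 1 number. By CPM the lines rise in 5 of 6 baboons and 5 of 5 macaques, on the TMM scale in 4 of 6 and 2 of 5, and the bear rises on both.

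Gamt, the second step, was highest in liver in baboon, macaque, beaver and white-footed mouse. Baboon livers ran from 110.7 through 123.6 to 146.4 CPM (mean 126.9 ± 16.0, SD, n = 6), kidneys from 57.6 through 82.9 to 107.2 CPM (mean 81.1 ± 18.03, SD, n = 6), and brains from 18.7 through 24.7 to 33.8 CPM (mean 26.0 ± 5.62, SD, n = 6). Macaque livers ran from 76.5 through 127.9 to 145.1 CPM (mean 120.6 ± 23.7, SD, n = 6) and cerebella from 15.3 through 25.6 to 27.1 CPM (mean 23.2 ± 4.92, SD, n = 6). The macaque kidneys held 72.3, 47.2, 58.3, 63.3 and 60.0 CPM (mean 60.2 ± 9.07, SD, n = 5). In both primates the order liver, kidney, brain or cerebellum held with no overlap of the groups on either scale. On the TMM scale, fitted log2 differences from liver were -2.05 ± 0.16 (SE) for kidney and -3.72 ± 0.17 for brain in baboon. In macaque they were -2.25 ± 0.17 for kidney and -3.84 ± 0.17 for cerebellum. With library totals each of these differences was smaller.

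The beaver had the widest contrast in Gamt. Its livers held 428.5 and 458.6 CPM, the highest of the 48 libraries, and its brains 11.2 and 12.6 CPM. The log2 difference on the TMM scale, brain minus liver, was -6.59 ± 0.20 (SE). In the white-footed mouse the liver held 81.6 CPM and the brain 7.27 CPM, an 11.2-fold difference (7.41 to 17.9). The bear departed from the primates: its kidney held 232.3 CPM and its liver 100.1 CPM, so that kidney was 2.32-fold higher (2.13 to 2.54) by CPM and 1.68-fold higher on the TMM scale, from 1 library each. Across the 21 livers Gamt stayed in a far narrower band than Gatm. Species means spanned 10.4-fold for Gamt, from 42.8 CPM in the bat to 443.6 CPM in the beaver, and 1564-fold for Gatm, from 1.63 CPM in the chipmunk to 2554 CPM in the bear. On the TMM scale the spans were 15.9-fold and 2414-fold. The chipmunk livers, lowest in Gatm, held 212.0 and 180.9 CPM of Gamt, above every primate liver.

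The ratio of Gatm to Gamt within a library does not depend on how libraries are scaled. The lengths of the genes are not in the files, so its absolute value carries no meaning and only differences between libraries are described. The mean log2 ratio was 5.23 ± 0.77 (SD, n = 6) in baboon kidneys, 3.40 ± 0.57 in baboon livers and 2.63 ± 0.33 in baboon brains. In macaque it was 4.92 ± 0.47 (SD, n = 5) in kidneys, 2.57 ± 0.55 (n = 6) in livers and 3.03 ± 0.38 (n = 6) in cerebella. Kidney therefore exceeded liver by 1.83 in baboon and by 2.35 in macaque, which are 3.56-fold and 5.09-fold shifts towards Gatm. The macaque groups did not overlap. The baboon groups did, through kidney no. 6 at 3.82, below the highest liver at 3.97.

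In the bear the ratio barely differed between the organs, at 4.72 in kidney and 4.67 in liver. The beaver brains lay above the livers by 2.82, at 4.51 and 4.16 against 1.68 and 1.35, whereas baboon brains lay below baboon livers by 0.77 with overlap. In the white-footed mouse the brain was at 1.09 and the liver at -4.94. The other low livers were at -2.17 in the bat, -4.70 and -5.62 in the sugar gliders, and -6.43 and -7.81 in the chipmunks. These 6 livers lay below each of the other 42 libraries, of which the white-footed mouse brain was the lowest. Between species the ratio also carries how well each gene was counted in a species, which cannot be told apart from expression here.

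**Figure D3:**
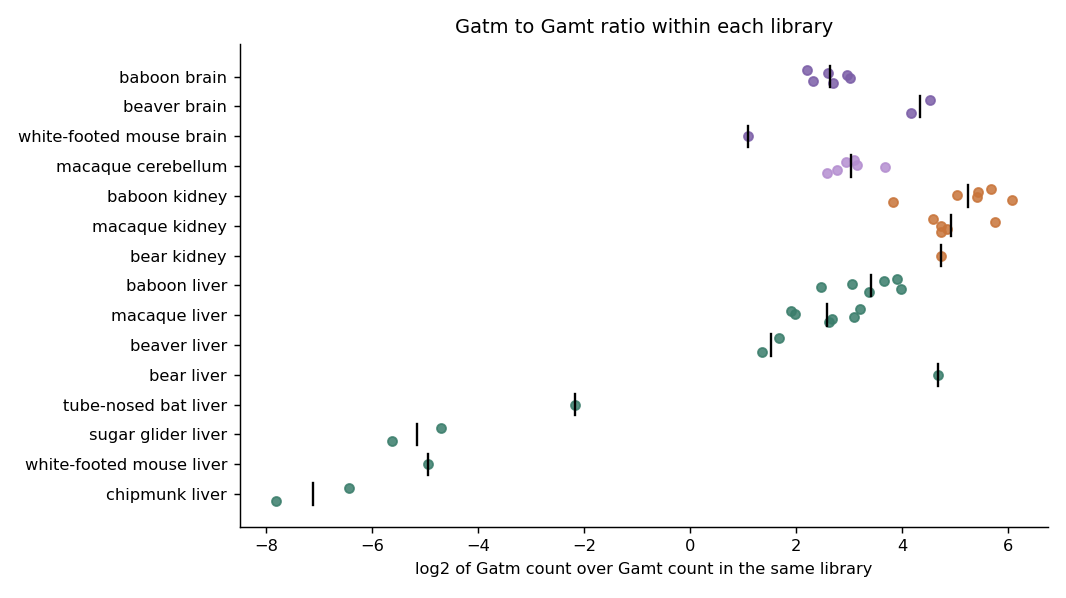
Log2 of the Gatm count over the Gamt count within each library, by species and organ; points are libraries and black bars group means. Baboon and macaque kidneys average 5.23 and 4.92, their livers 3.40 and 2.57, the bear organs 4.72 and 4.67, and 6 livers of 4 other species lie between -2.17 and -7.81. Between species the ratio also carries how well each gene was counted.

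Slc6a8, the transporter, was low in liver and higher in every other organ of the same species by CPM. Baboon livers ran from 5.84 through 7.60 to 16.1 CPM (mean 8.91 ± 3.77, SD, n = 6), kidneys from 128.6 through 154.4 to 212.7 CPM (mean 159.7 ± 29.6, SD, n = 6) and brains from 181.0 through 237.0 to 256.1 CPM (mean 233.0 ± 27.3, SD, n = 6). In macaque the livers ran from 12.6 through 25.02 to 39.7 CPM (mean 26.5 ± 11.7, SD, n = 6) and the cerebella from 154.6 through 176.1 to 184.2 CPM (mean 171.6 ± 13.2, SD, n = 6), and the kidneys held 221.6, 169.5, 217.0, 224.3 and 316.2 CPM (mean 229.7 ± 53.3, SD, n = 5). No liver reached a kidney, brain or cerebellum in either primate on either scale. On the TMM scale, the fitted log2 difference from liver was 2.76 ± 0.20 (SE) for kidney and 3.28 ± 0.21 for brain in baboon. In macaque it was 1.88 ± 0.24 for kidney and 1.26 ± 0.23 for cerebellum. With library totals each of these differences was larger.

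Between kidney and brain the primates were ordered differently, though the brain regions sampled differ by label. Baboon brain lay above kidney by 0.52 ± 0.19 (log2, SE), with the brain higher in 6 of 6 same-numbered pairs and the groups overlapping. Macaque cerebellum lay below kidney by 0.62 ± 0.23, with overlap by CPM and none on the TMM scale, and was lower in 4 of 5 pairs by CPM and 5 of 5 on the TMM scale. The beaver showed the widest Slc6a8 contrast, with 113.3 and 103.7 CPM in brain against 1.48 and 2.26 CPM in liver. On the TMM scale the log2 difference was 4.47 ± 0.27 (SE), and it rose to 4.84 without liver no. 2. The bear kidney held 69.5 CPM and its liver 8.22 CPM, an 8.46-fold difference (6.44 to 11.1). In the white-footed mouse the gap was narrow, 50.6 CPM in brain and 21.4 CPM in liver, or 2.37-fold (1.87 to 3.00) by CPM and 1.29-fold on the TMM scale.

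Ckb, the cytosolic kinase, had the widest differences from liver of the 4 genes in baboon and macaque and the same order in each species with the organs to show it: brain or cerebellum, then kidney, then liver. Baboon brains ran from 1540.4 through 2585 to 2999.9 CPM (mean 2466 ± 508.7, SD, n = 6), kidneys from 286.8 through 484.9 to 933.8 CPM (mean 566.4 ± 267.2, SD, n = 6) and livers from 18.8 through 23.1 to 33.0 CPM (mean 24.7 ± 5.59, SD, n = 6). Macaque cerebella ran from 2397 through 2681 to 3115 CPM (mean 2722 ± 288.7, SD, n = 6) and livers from 9.03 through 17.2 to 19.8 CPM (mean 15.9 ± 3.98, SD, n = 6), and the kidneys held 286.4, 341.3, 178.2, 303.1 and 190.0 CPM (mean 259.8 ± 72.0, SD, n = 5). None of these groups overlapped within a species, with no share of all genes to set beside it. Against liver, the fitted log2 difference on the TMM scale was 5.21 ± 0.30 (SE) for baboon brain, 5.97 ± 0.24 for macaque cerebellum and 5.46 ± 0.30 for beaver brain. For kidney it was 3.09 ± 0.27 in baboon and 2.79 ± 0.22 in macaque. With library totals each of these differences was larger.

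The single white-footed mouse brain held 8911 CPM of Ckb, the highest of the 48 libraries, and its liver 19.3 CPM, a 462.7-fold difference (386.3 to 554.2) by CPM and 251.9-fold on the TMM scale. The beaver brains held 2675.5 and 2025.5 CPM and the livers 17.4 and 23.8 CPM. In the bear the kidney held 236.1 CPM and the liver 8.22 CPM, 28.7-fold apart (22.1 to 37.3). Across livers Ckb varied least of the 4 genes, with species means from 8.22 CPM in the bear to 42.4 CPM in the bat, a 5.15-fold span.

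Baboon and macaque are the species with enough replicates to set the same organ side by side; both come from 1 collection. Their differences are given on the TMM scale as log2 fold changes, baboon over macaque, with the SE of an edgeR fit over all genes and with no test of the 4 genes, since the levels by species and organ were used to choose them. In liver, Slc6a8 stood at -1.45 ± 0.30 (SE), Ckb at 0.75 ± 0.19, Gatm at 0.96 ± 0.34 and Gamt at 0.19 ± 0.14. In kidney the same genes stood at -0.58 ± 0.16, 1.04 ± 0.31, 0.78 ± 0.32 and 0.37 ± 0.17. The transporter was thus lower, and the kinase and both synthesis genes higher, in the baboon means of both organs. By CPM the libraries of both species overlapped for each gene in each organ. Expression and how well a gene was counted in a species cannot be told apart here either. Over all genes, 24.8% of 11948 were called between the livers and 30.9% of 13082 between the kidneys, at an adjusted p under 0.05.

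An interaction term gives how far the kidney to liver difference itself differed between baboon and macaque, baboon minus macaque. It was 0.90 ± 0.36 (log2, SE) for Slc6a8, whose kidney excess over liver was the larger in baboon, and 0.32 ± 0.37 for Ckb. For the synthesis genes it was -0.16 ± 0.50 for Gatm and 0.21 ± 0.22 for Gamt, each within 1 SE of 0. This fit did not use the library numbers, and the Gatm value with them is in the closing section. Over all genes, 10% of 13600 had a called interaction.

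Beaver brain was set beside baboon brain, also within 1 collection. Gatm was 0.47 ± 0.18 (log2, SE) higher in beaver, while Gamt was lower at -1.24 ± 0.22 and Slc6a8 lower at -1.22 ± 0.14. By CPM the 2 beaver brains lay outside the range of the 6 baboon brains for these 3 genes. Over all genes, 53% of 14484 were called, which is not a share of genes with separate ranges. Ckb differed by -0.19 ± 0.25, with overlap. Expression, how well a gene was counted in a species, and the unlabelled brain region cannot be told apart in these differences.

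All 21 livers were then fitted together and each species was set against the mean of the other 7. These 8 comparisons share libraries and are not independent of each other, and a species with 1 library borrowed its spread from the rest. No source used here gives the way in which each species' reads came to carry mouse identifiers, so a difference in expression and one in how well a gene was counted in a species cannot be told apart. Gatm was higher in bear by 6.39 ± 0.42 (log2, SE), in baboon by 5.06 ± 0.34, in beaver by 4.72 ± 0.38 and in macaque by 3.97 ± 0.32. It was lower in chipmunk at -6.52 ± 0.71, in sugar glider at -5.35 ± 0.66, in white-footed mouse at -4.21 ± 0.88 and in tube-nosed bat at -4.06 ± 0.85. The chipmunk value was -7.34 without library no. 1 and -5.93 without no. 2. Over all 14371 genes tested, the share called was 58.2% for baboon, 54.3% for macaque, 44.4% for beaver, 30.2% for bear, 42.1% for chipmunk, 50.8% for sugar glider, 43.4% for tube-nosed bat and 53.9% for white-footed mouse.

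The 4 species above the mean in Gatm were the 3 of the primate center and the bear, and the 4 below it were the rest of the earlier collection, so the part of the collection in this split was not tested. Set only against species of its own collection, the bear stood at 10.001 ± 0.61 (log2, SE), the chipmunk at -4.12 ± 0.65, the sugar glider at -2.84 ± 0.60, the white-footed mouse at -1.60 ± 0.77 and the bat at -1.44 ± 0.73. Within the primate center the differences were 0.63 ± 0.33 in baboon, -0.81 ± 0.33 in macaque and 0.18 ± 0.43 in beaver. The wide spread of Gatm within the earlier collection thus lay between the bear and the other 4 species.

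**Figure D4:**
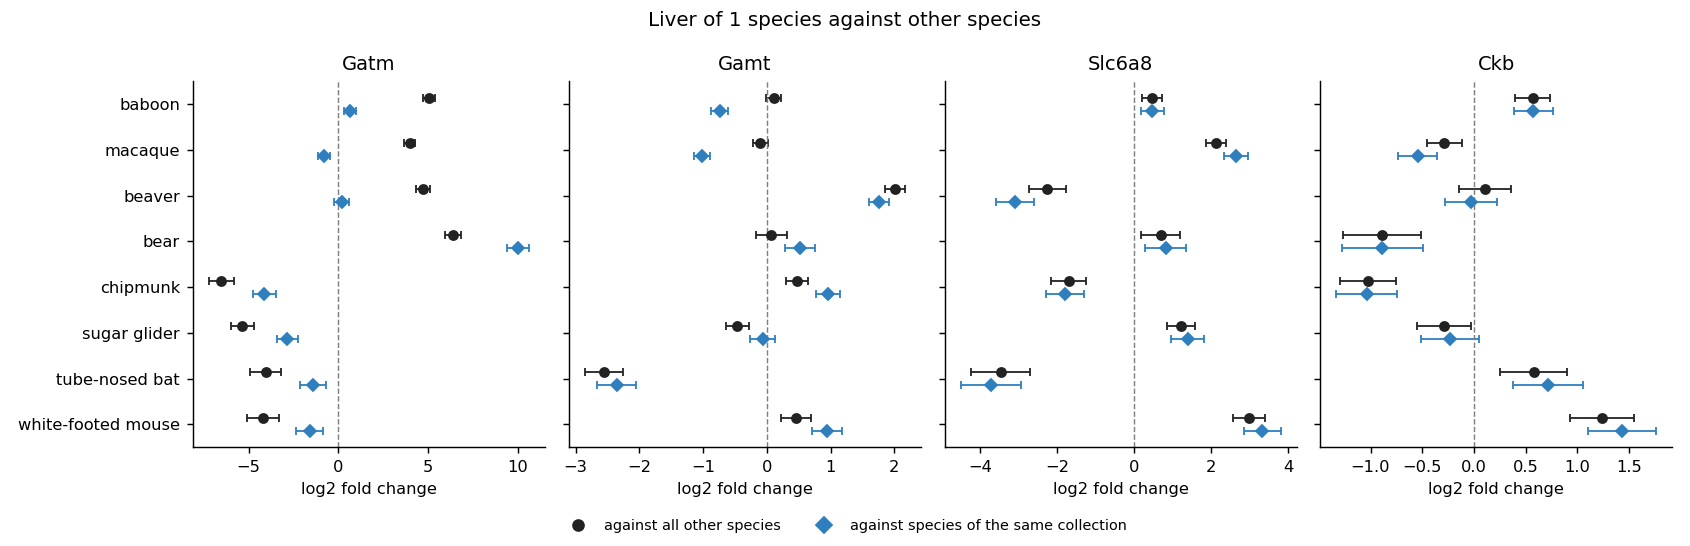
Log2 fold change of each gene in the liver of 1 species against the other 7 (black circles) or against species of its own collection only (blue diamonds), with TMM factors; bars are 1 SE, and each panel has its own axis range. For Gatm the bear moves from 6.39 to 10.001 and the macaque from 3.97 to -0.81, while Slc6a8 and Ckb move less.

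Gamt moved with the choice of species compared. Against all others it was higher in beaver by 2.01 ± 0.15 (log2, SE) and lower in bat at -2.56 ± 0.30, and within a collection it stood at 1.76 and -2.36 in the same species. Baboon and macaque were near 0 against all others, at 0.11 ± 0.12 and -0.10 ± 0.12, and at -0.74 ± 0.13 and -1.02 ± 0.13 within the primate center, where beaver is the third species. In the earlier collection the chipmunk went from 0.48 ± 0.17 to 0.96 ± 0.19, the white-footed mouse from 0.46 ± 0.23 to 0.94 ± 0.23, the bear from 0.07 ± 0.24 to 0.52 ± 0.24 and the sugar glider from -0.46 ± 0.18 to -0.065 ± 0.20. Scaled to library totals, the sign of Gamt against all others turned in bear (-0.37), sugar glider (0.031) and white-footed mouse (-0.70).

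Slc6a8 and Ckb moved less than Gatm with the choice of species compared. Against all others, Slc6a8 was higher in white-footed mouse by 2.98 ± 0.41 (log2, SE), in macaque by 2.11 ± 0.26 and in sugar glider by 1.21 ± 0.36. It was lower in bat at -3.47 ± 0.77, from 12 counts, in beaver at -2.26 ± 0.48 and in chipmunk at -1.70 ± 0.45. Within a collection each of these 6 kept its sign, and macaque and beaver lay farther from 0. Beaver liver thus paired high levels of both synthesis genes with a low level of the transporter, and macaque liver had the highest mean of the transporter by CPM. Ckb was higher in white-footed mouse by 1.23 ± 0.31 and in baboon by 0.57 ± 0.17, and lower in chipmunk at -1.02 ± 0.27 and in bear at -0.89 ± 0.38. The single bat liver, highest of the species by CPM at 42.4, stood near baboon, at 0.53 to 0.62 when libraries of other species were left out in turn. The mouse library has the lowest TMM factor, 0.318, and its median gene stood at -0.65 with TMM factors and at -1.72 with library totals, on which Ckb was 0.078.

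Within groups of 6 libraries, 46 relations between 2 of the genes, or between same-numbered organs for 1 gene, were computed on log2 CPM. None passed at an adjusted p under 0.05, and 6 had an unadjusted p under 0.05 by Pearson's r. The strongest was in baboon kidneys, where Gatm and Ckb ran in opposite order: r = -0.890 (exact permutation p = 0.00139, adjusted 0.0639, n = 6) and Spearman's rho = -1 (exact permutation p = 0.00278, adjusted 0.128). Kidney no. 6 had the lowest Gatm and the highest Ckb, 1135 and 933.8 CPM, and kidney no. 1 the highest Gatm and the lowest Ckb, 5434 and 286.8 CPM. Without the 2 kidneys farthest from the median Gatm, r was -0.944 over 4 libraries. For the 5 macaque kidneys no correlation is given, as for any full group under 6, but both genes had the same order in them: no. 2 had the most of both, 2535 and 341.3 CPM, and no. 3 the least of both, 1549.95 and 178.2 CPM.

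**Figure D5:**
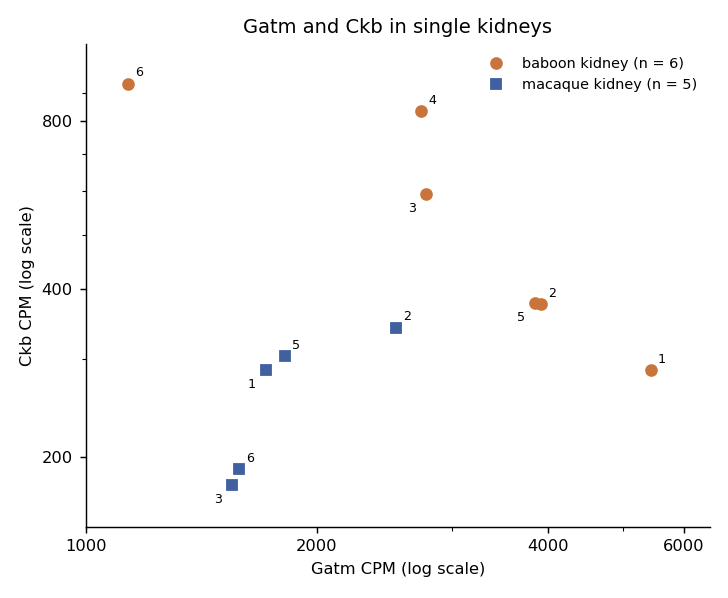
Gatm against Ckb in CPM (log axes) in 6 baboon kidneys (circles) and 5 macaque kidneys (squares), each labelled with its library number. Baboon kidneys fall from no. 6 (1135 and 933.8 CPM) to no. 1 (5434 and 286.8 CPM), while macaque kidneys rise from no. 3 to no. 2.

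Over the 15 species and organ groups, the genes whose mean log2(CPM + 1) ran most like each of the 4 were ranked among 9727 genes with a mean of at least 10 CPM. For Gatm the nearest was ENSMUSG00000025813, with r = 0.876, and for Ckb it was ENSMUSG00000028949, with r = 0.976. The files give no names for them. The 4 genes were not each other's nearest neighbours. Gatm and Gamt had r = 0.229, Slc6a8 and Ckb r = 0.757, and Gamt and Ckb r = -0.800. These values describe 15 points that share organs, species and collections.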

How the data were processed

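Raw read counts for 16816 genes in 48 libraries were used as the authors deposited them, as 1 table with no normalization. STAR and featureCounts are named in the submitters' processing notes; no source used here gives versions, genome builds or strand settings. Counts from 1 to 20 were even in 94.3% to 99.4% of cases a library, so 2 counts were taken as 1 read pair for counting intervals. The genes and lists were chosen with earlier results of these data known, and every gene with a row is named in each comparison. Gene symbols were written for this work; supporting gene lists and cell type markers, held as symbols, could not be matched to identifiers and were not tested.

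Fits used edgeR 4.0.16 (TMM, filterByExpr, quasi-likelihood F test, two-sided) in R 4.3.3, adjusted by Benjamini-Hochberg over all genes tested in a fit; the SE was derived from the fold change and F. Since the levels were used to choose the genes, no p-value of a fold change is given for them, although the design listed the species comparisons as tests; calls are given over all genes only. Replicates are labelled as separate samples, and nothing says that they are separate animals, so errors and p-values measure the spread between these samples. No 2 libraries of a group held identical values or agreed within sampling noise (chi-square per gene of at least 8.23). The fits were also run on simulated data, in which all libraries shared a mean profile apart from a set of changed genes. That simulation held no difference between organs in the most counted genes, so it cannot speak to the choice of scale. The most alike genes were ranked by Pearson's r over 15 groups with a pseudocount of 1. Total-count scaling, within-collection contrasts and counting intervals were added after seeing the data. Same-numbered macaque libraries deviated together between kidney and liver (r 0.228 to 0.295) and between cerebellum and kidney (r 0.135 to 0.161), so the numbers pair those organs. For macaque cerebella and livers r was over 0.1 in 0 of 6 pairs, though the own number was the best match in 6 of 6. For baboon kidney and liver these counts were 5 of 6 and 6 of 6, for brain and kidney 3 of 6 and 5 of 6, and for brain and liver 1 of 6 and 4 of 6. An r under 0.1 does not show that a pair is unrelated. The fits quoted in Results used the groups alone and not the library numbers. Fits with the number as a replicate block were run as an alternative.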

Additional observations from a re-analysis of the deposited data

Results flagged for a closer look

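In 30 groups of 4 to 10 libraries, taken gene by gene and for the log2 ratio of Gatm to Gamt, 3 held a library set far apart from the rest by Dixon's test, where chance gives about 1 group in 20. Macaque kidney no. 2 was above the other 4 in Gatm, at 2535 CPM, with the next at 1816 CPM. The same library was highest in the log2 ratio of Gatm to Gamt, at 5.75, with the next at 4.84. Both flags of this library share its Gatm count, so they are not independent. The tests were not adjusted for their number. Baboon brain no. 5 was below the other 5 in Slc6a8, at 181.0 CPM, with the next at 232.8 CPM.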

How the results depend on the processing

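Scaling to library totals in place of TMM factors moved every liver contrast of organs. The log2 differences from liver for Gatm, Gamt, Slc6a8 and Ckb became -3.14, -2.28, 4.71 and 6.64 for baboon brain, 1.22, -0.65, 4.16 and 4.52 for baboon kidney, -2.08, -2.38, 2.70 and 7.42 for macaque cerebellum, 1.22, -1.002, 3.12 and 4.03 for macaque kidney, and -2.40, -5.22, 5.85 and 6.84 for beaver brain. The sign of Gatm turned for both kidneys. In livers against the other species, the same scaling gave Gamt -0.37 and Ckb -1.32 in bear, Gamt 0.75 in chipmunk, Gamt 0.031, Slc6a8 1.71 and Ckb 0.21 in sugar glider, Gatm -3.28, Gamt -1.77, Slc6a8 -2.68 and Ckb 1.38 in bat, and Gatm -5.38, Gamt -0.70, Slc6a8 1.82 and Ckb 0.078 in white-footed mouse. By construction, total scaling lets genes that fill a library lower all others, while TMM factors rest on most genes not differing. The median gene moved with the scaling, and which scale lies nearer to the RNA levels was not tested. DESeq2 gave Gamt 0.73 in the mouse. A fit of all 48 libraries called 4969 genes between baboon and macaque liver against 2961; the cause was not tested.

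Within a collection, with fewer species compared by construction, Gatm was 0.63 in baboon, -0.81 in macaque, 0.18 in beaver, 10.001 in bear, -4.12 in chipmunk, -2.84 in sugar glider, -1.44 in bat and -1.60 in mouse. Gamt was -0.74 in baboon, -1.02 in macaque, 1.76 in beaver, 0.52 in bear, 0.96 in chipmunk, -0.065 in sugar glider and 0.94 in mouse, and Slc6a8 was 2.64 in macaque and -3.10 in beaver. Leaving out 1 library in turn gave 4.18 to 4.84 for Slc6a8 in beaver brain against liver and -7.34 to -5.93 for Gatm in chipmunk liver; where this leaves 1 library in a species, it is assumed to vary like the others. For the interaction it was run for macaque kidneys only, given the limit on refits. With the replicate block, Gatm in macaque kidney against liver was 0.17, in baboon -0.23, and in the interaction -0.46; no fold change of the 4 genes moved beyond the spread. Over all alternatives and the 4 genes, 1338 recomputed fold changes stayed within the spread between replicates, 46 moved beyond it with their sign and 8 turned sign beyond it; values near 0, such as Gatm in macaque kidney against liver, also turned sign within the spread. Depth limits Gatm in the 6 low livers, with 18 to 82 counts each.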
